A study of Mus musculus with 48 samples.

Results

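The TAM family was examined in the dentate gyrus during early epileptogenesis: the receptor tyrosine kinase genes Axl, Mertk and Tyro3 and their ligand genes Gas6 and Pros1. These 5 genes were taken by name from the 55357 genes of a deposited count table, and all 5 passed the filter for low counts. Axl, Pros1 and Gas6 were upregulated in the injected dentate gyrus 3 days after kainate, and these genes and Mertk at day 7. In the contralateral dentate gyrus Axl and Pros1 were upregulated at day 3, and no TAM gene was called later. Tyro3 was not upregulated in any comparison, and its mean level in the injected dentate gyrus was lower after kainate than after saline at days 3 and 7.

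TAM receptors recognize phosphatidylserine, a lipid that dying cells and some stressed cell parts display on their outer surface, through the bridging proteins Gas6 and protein S, the product of Pros1. Receptor engagement promotes engulfment of the displayed material and dampens innate immune signaling. Mertk and Axl are best known in macrophages and microglia, Tyro3 is found in neurons, Gas6 activates each of the receptors, and protein S acts mainly on Tyro3 and Mertk.

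RNA was sequenced from the dorsal dentate gyri of 24 wild-type C57BL/6J mice, with no transgene in any group. One hippocampus of each mouse received kainate, which triggers status epilepticus (SE), or saline as vehicle control, and tissue was taken 3, 7 or 14 days later. Treatment and day made 6 groups of 4 mice with both sexes in equal number, and the age was given as 6 to 8 weeks in the sample records and as 8 to 10 weeks in the methods. The injected, ipsilateral side represents the epileptogenic zone (EZ) and the other side of the same mouse the peri-ictal zone (PIZ), which gave 48 libraries in 12 groups of 4. Seizures of single mice were not analysed here.

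Each library held 17762656 to 25712975 counts (median 22108562.5). Counts ranged from 829 to 7538 per library for Axl, from 585 to 3750 for Mertk, from 588 to 2006 for Tyro3, from 959 to 6999 for Gas6 and from 199 to 3163 for Pros1. Levels are given in TPM, which are counts divided by the length of all exons of a gene and scaled to a common sum per library, so that genes can be compared. Log2 fold changes with their standard errors (SE of the estimate, written as ±) come from edgeR's quasi-likelihood test on the counts, with n = 4 mice in each group. Each gene had 1 estimate of spread over all 48 libraries, not a separate estimate from the groups compared. A differentially expressed gene (DEG) had to change more than 1.5-fold with a p below 0.01 after Benjamini-Hochberg adjustment over the 21390 genes tested. Prox1, which marks dentate granule cells, had a median of 83.8 to 111 TPM in every group. Of the EZ libraries at day 14 after kainate, that of mouse 27 stood apart from the other 3, and its values are given wherever they bear on a result.

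Axl (ENSMUSG00000002602.17) lies on chromosome 7 of GRCm39 from 25456535 to 25488329 on the minus strand, and its canonical transcript has 20 exons. Mertk (ENSMUSG00000014361) and Tyro3 (ENSMUSG00000027298) both lie on the plus strand of chromosome 2, at 128540729 to 128645080 and 119628214 to 119648738, with 19 exons each. Gas6 (ENSMUSG00000031451) spans 13515371 to 13544824 on the minus strand of chromosome 8, and Pros1 (ENSMUSG00000022912) spans 62674275 to 62749710 on the plus strand of chromosome 16, with 15 exons each. No stretch of 36 bases of exon sequence was shared between members (0 windows), and 0% of windows of Tyro3 to 2.14% of those of Mertk also occurred in another gene. Exons overlapped other genes only on the opposite strand, over at most 3.02% of a member's exon bases, and the counting was stranded.

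The promoters of Axl and Pros1, the receptor and the ligand whose levels followed each other most closely (Pearson's r of 0.95 between their log2 CPM over 48 libraries), and that of Tyro3, whose r with Axl over the same libraries was -0.56, are shown as the 250 bases before the start of the canonical transcript in the GRCm39 genome. Each is written 5′ to 3′ on the strand of its gene. Capitals mark the longest AG repeat in Axl and Pros1 and the GC boxes in Tyro3. The positions are chr7:25488330-25488579 on the minus strand for Axl, chr16:62674202-62674451 on the plus strand for Pros1 and chr2:119629745-119629994 on the plus strand for Tyro3. The Tyro3 window lies wholly inside the annotated gene, which begins at 119628214. That of Pros1 lies inside its gene from 62674275 on. Promoter here thus means only the bases before the canonical start, and other annotated transcripts of these 2 genes begin further upstream.
Axl: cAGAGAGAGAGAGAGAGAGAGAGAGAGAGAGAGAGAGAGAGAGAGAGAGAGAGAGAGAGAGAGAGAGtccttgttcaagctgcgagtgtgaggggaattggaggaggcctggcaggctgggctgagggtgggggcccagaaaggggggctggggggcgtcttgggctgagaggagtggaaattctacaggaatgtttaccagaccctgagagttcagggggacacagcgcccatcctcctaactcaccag
Pros1: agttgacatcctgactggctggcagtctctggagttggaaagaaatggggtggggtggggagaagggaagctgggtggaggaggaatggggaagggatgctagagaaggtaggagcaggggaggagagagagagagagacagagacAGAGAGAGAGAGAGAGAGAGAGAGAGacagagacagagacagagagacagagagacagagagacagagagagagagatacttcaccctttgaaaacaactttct
Tyro3: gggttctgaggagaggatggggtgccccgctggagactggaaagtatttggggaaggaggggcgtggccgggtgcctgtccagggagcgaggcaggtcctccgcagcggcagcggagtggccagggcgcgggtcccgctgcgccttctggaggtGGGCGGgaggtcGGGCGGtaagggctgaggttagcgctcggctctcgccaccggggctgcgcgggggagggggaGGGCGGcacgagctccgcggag

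The AG repeat ran over 33 units in the Axl promoter and 13 units in that of Pros1, against 3 units or fewer in the other members. A repeat of at least 10 units was present in 0.62% of 21770 promoters of protein-coding genes, and this feature was picked after the sequences were read. GC boxes (GGGCGG on either strand) were present in 36.3% of promoters, with 3 in Tyro3, 3 in Mertk and 0 in the other members. The Tyro3 promoter had 24 CG pairs and a GC content of 73.2%, against medians of 8 and 53.2% over all promoters, and the Pros1 promoter had 0 CG pairs. Matches to an AP-1 motif (TGANTCA, in 6.2% of promoters), a gamma-activated site (TTCNNNGAA, 7.7%), an interferon-stimulated response element (GAAANNGAAA, 3.3%), a PU.1 site (GAGGAAGT, 2.1%), an E-box (CANNTG, 64.8%) and a TATA box (TATAAA, 11.9%) were searched on both strands, and 0 were found in the windows of the 5 genes. These matches describe letters and are not measured binding.

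Axl, the TAM receptor that is best known as induced by inflammatory signals, was upregulated in the EZ at days 3 and 7 and in the PIZ at day 3. At day 3 its level in the EZ was 46.8, 51.2, 68.5 and 88.98 TPM in kainate-injected mice and 20.9, 22.1, 22.9 and 24.1 TPM in saline-injected mice. The lowest kainate library was thus well above the highest saline library, and the kainate libraries were far more spread. The log2 fold change was 1.36 ± 0.21, or 2.57-fold (adjusted p = 2.96e-06, edgeR). By day 7 the EZ libraries held 44.4, 74.8, 89.02 and 113 TPM after kainate and 17.3, 18.1, 18.4 and 18.7 TPM after saline, again without overlap, with a log2 fold change of 2.10 ± 0.21 (adjusted p = 8.85e-09, edgeR). Over all genes tested, Axl ranked 10 by p in this comparison. At day 14 after kainate, 3 EZ libraries were at 20.7, 22.6 and 27.4 TPM and that of mouse 27 at 55.0 TPM, against 19.1 to 19.9 TPM after saline. The groups did not overlap, but the log2 fold change of 0.73 ± 0.21 was not called (adjusted p = 0.0295, edgeR), and it was 0.24 without mouse 27. Without kainate mouse 14 or 36, both with low levels, it was called (0.87, adjusted p = 0.00714, and 0.90, adjusted p = 0.0039, edgeR).

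In the PIZ at day 3, Axl was at 33.1, 33.4, 33.7 and 36.5 TPM after kainate and at 16.7, 16.7, 17.8 and 18.3 TPM after saline. All kainate libraries were close together and clear of the saline libraries, and the log2 fold change was 0.87 ± 0.21 (adjusted p = 0.0023, edgeR). Without saline mouse 18 or 41 the adjusted p was 0.0125 or 0.01005, just past the threshold. At day 7 the PIZ kainate libraries held 18.3 to 26.3 TPM against 16.1 to 18.3 TPM (log2 fold change 0.29 ± 0.21, adjusted p = 0.535, edgeR), and at day 14 the groups overlapped (-0.02 ± 0.21, adjusted p = 1, edgeR).

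Mertk, the receptor of homeostatic clearance by microglia and macrophages, was called at day 7 in the EZ only among the 6 comparisons of kainate with saline. Its EZ level at day 7 was 34.4, 51.8, 91.8 and 107 TPM after kainate, in mice 23, 26, 35 and 21, and 25.8, 27.2, 28.1 and 30.2 TPM after saline. The 4 kainate libraries were all above the saline libraries, although the lowest was close to them, and the log2 fold change was 1.30 ± 0.22, or 2.46-fold (adjusted p = 5.28e-06, edgeR). At day 3 the EZ values of 32.3, 39.8, 42.4 and 48.2 TPM overlapped those after saline, 26.7, 32.5, 33.5 and 34.1 TPM. That difference was 0.22 ± 0.22 (adjusted p = 0.427, edgeR), with a 95% interval of -0.22 to 0.66. At day 14 mouse 27 had 55.1 TPM and the other kainate mice 24.5 to 29.2 TPM, a range that included all saline values (26.4 to 27.97 TPM). In the PIZ, the log2 fold changes of Mertk were 0.07 ± 0.22, -0.02 ± 0.22 and -0.36 ± 0.22 at days 3, 7 and 14, with adjusted p from 0.848 to 0.98 (edgeR).

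Tyro3, the TAM receptor of neurons and other cells of the nervous system, was in no comparison a DEG in the 48-library model. Its EZ level at day 3 was 15.9998, 18.8, 19.7 and 22.1 TPM after kainate and 23.6, 25.4, 26.04 and 41.1 TPM after saline. The groups did not overlap, with the kainate libraries lower, and the log2 fold change of -0.74 ± 0.26 had an adjusted p of 0.0162 (edgeR). It passed the threshold with DESeq2 (-0.76, adjusted p = 0.00912), with limma-voom and quality weights (-0.87, adjusted p = 0.000859) and in an edgeR model of the 8 libraries compared (-0.78, adjusted p = 0.00614). At day 7 the EZ values of 17.2, 17.3, 20.9 and 29.6 TPM overlapped those after saline, 25.4, 27.3, 29.7 and 41.5 TPM (-0.58 ± 0.25, adjusted p = 0.05001, edgeR). By day 14 the kainate libraries split into 17.0 and 19.7 TPM and 38.6 and 47.6 TPM, and the saline libraries also ranged from 18.6 to 40.2 TPM. In the PIZ at day 7 the kainate libraries held 32.97, 40.4, 40.9 and 43.6 TPM against 16.3, 25.3, 29.4 and 35.8 TPM, the opposite order to the EZ, but with overlap (0.47 ± 0.25, adjusted p = 0.396, edgeR).

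**Figure D1:**
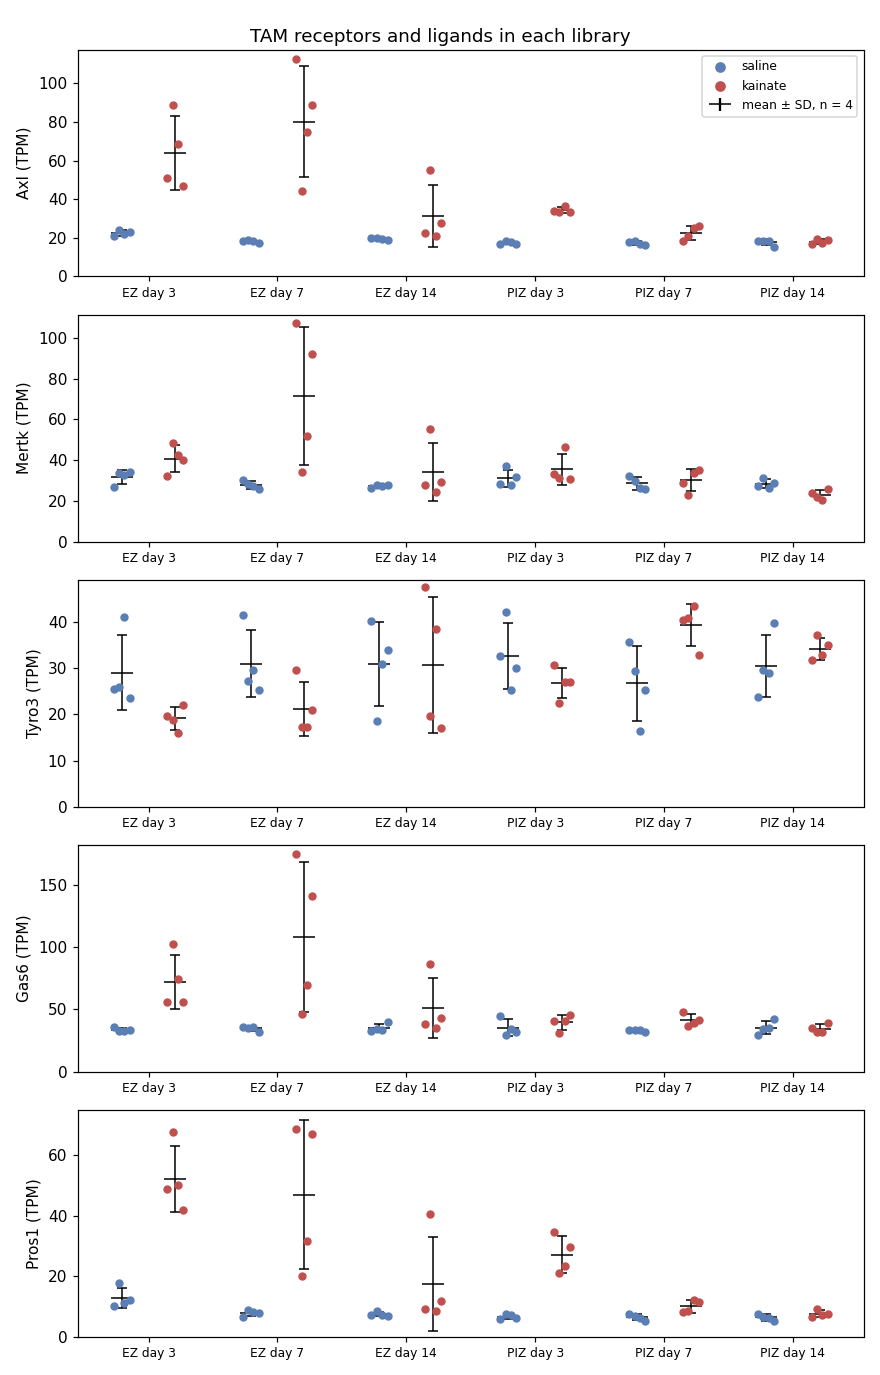
Level of each TAM gene in TPM (vertical axis) in the 48 libraries, by region and day (horizontal axis), with saline in blue and kainate in red and the mean ± SD of 4 libraries in black. Axl, Gas6 and Pros1 stand clear of saline in the EZ at days 3 and 7, Mertk at day 7, and 1 library of the EZ at day 14, that of mouse 27, is high for Axl, Mertk, Gas6 and Pros1.

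Gas6, the ligand with the highest affinity for Axl, was upregulated in the EZ at days 3 and 7. At day 3 its EZ level was 55.5, 56.0, 74.3 and 102 TPM after kainate and 32.4, 32.8, 33.6 and 35.7 TPM after saline, with no overlap. The log2 fold change was 0.96 ± 0.24 (adjusted p = 0.00145, edgeR), and without kainate mouse 38 it was 0.74 with an adjusted p of 0.0178, which was not called. At day 7 the EZ values were 46.0, 69.8, 141 and 175 TPM after kainate and 32.0, 34.96, 35.8 and 36.2 TPM after saline (1.58 ± 0.25, adjusted p = 1.68e-06, edgeR). Mice 21 and 35 had the highest Gas6 levels of all libraries, whereas mouse 23 was close to the saline range. At day 14 the EZ kainate libraries held 35.1, 38.6, 43.2 and 86.6 TPM, the last in mouse 27, against 32.8 to 40.2 TPM after saline. The log2 fold change of 0.57 ± 0.24 was not called (adjusted p = 0.195, edgeR). With 1 mouse left out it was as low as 0.11. The PIZ at day 3 held 31.1, 40.7, 40.9 and 45.5 TPM after kainate and 29.5, 31.9, 34.2 and 45.0 TPM after saline, which overlapped (0.07 ± 0.24, adjusted p = 0.871, edgeR).

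Pros1, which encodes protein S, had the largest fold changes of the 5 genes in each comparison in which it was called. In the EZ at day 3 it was at 41.9, 48.8, 50.0 and 67.7 TPM after kainate and at 10.2, 11.03, 12.2 and 17.6 TPM after saline, a log2 fold change of 1.89 ± 0.33 (adjusted p = 1.67e-05, edgeR). In the PIZ at day 3 it was at 20.97, 23.3, 29.7 and 34.5 TPM against 5.99, 6.25, 7.06 and 7.51 TPM, a log2 fold change of 1.90 ± 0.33 (adjusted p = 8.12e-05, edgeR). Levels were thus lower in the PIZ than in the EZ in both groups, while the fold changes were 3.73 and 3.70. In the EZ at day 7 the values were 20.1, 31.8, 66.9 and 68.7 TPM after kainate and 6.63, 7.79, 8.25 and 8.98 TPM after saline, a 5.68-fold difference (2.51 ± 0.34, adjusted p = 1.42e-07, edgeR). None of these 3 comparisons had overlapping groups. At day 14 in the EZ the kainate libraries were at 8.42, 9.08, 11.8 and 40.7 TPM, the last in mouse 27, and the saline libraries at 6.99 to 8.47 TPM. The log2 fold change of 1.30 ± 0.33 was not called (adjusted p = 0.0124, edgeR), was called by DESeq2 (1.30, adjusted p = 0.00218), and was 0.36 without mouse 27. It was called without kainate mouse 14 (1.53, adjusted p = 0.00239), 36 (1.54, adjusted p = 0.00164) or 40 (1.47, adjusted p = 0.00512, edgeR).

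Counted together, 3 of the 5 genes were upregulated in the EZ at day 3, where 24.7% of all genes tested were DEG, and 4 of 5 at day 7, where 32.5% were. At day 14 none of the 5 was called in the EZ with edgeR (0 genes), against 2.36% of all genes (0.0323% without mouse 27). DESeq2 called 1 and limma-voom 0, and 3 had an unadjusted p under 0.05. Of all 21390 genes, DESeq2 called 746 and limma-voom 58, and 3848 had an unadjusted p under 0.05 with edgeR. In the PIZ 2 of 5 were upregulated at day 3, against 8.69% of all genes. Neither PIZ day 7 (0 genes, against 0.201%) nor PIZ day 14 (0 genes, against 0.014%) had a call, and there edgeR at an unadjusted p under 0.05, DESeq2 and limma-voom each also gave 0. The median log2 fold change of the 5 genes was 0.96 in the EZ at day 3 and 1.58 at day 7, against 0.03 and 0.01 over all genes, and 0.07 in the PIZ at day 3 against 0.02. In whole tissue, more cells that express a gene and more RNA per cell cannot be told apart.

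**Figure D2:**
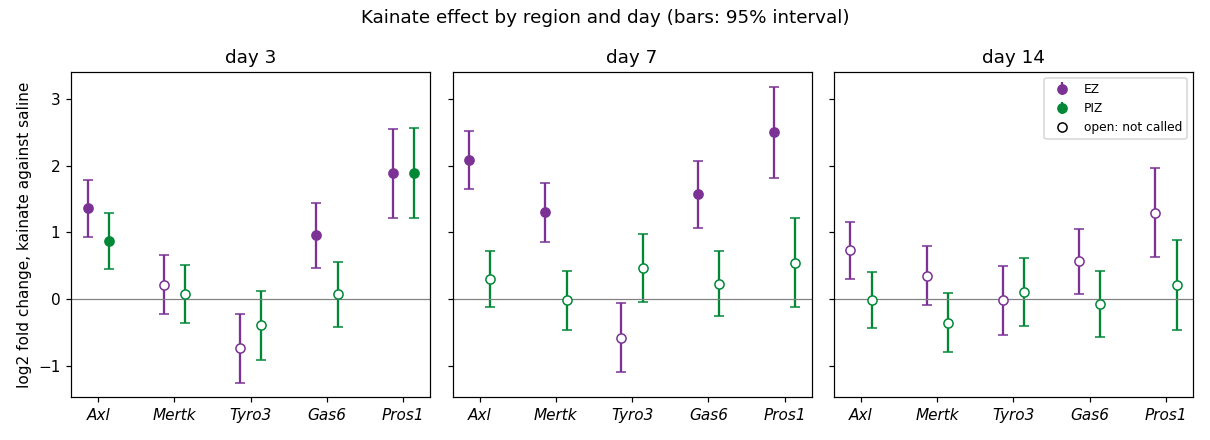
Log2 fold change of kainate against saline (vertical axis) for the 5 genes (horizontal axis) at each day, in the EZ (purple) and the PIZ (green), with 95% intervals; filled points were called. At day 3 Pros1 lay at 1.89 and 1.90 in the EZ and the PIZ, and at day 7 Axl, Mertk, Gas6 and Pros1 were called in the EZ and no gene in the PIZ.

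The difference between regions was tested directly as the kainate effect in the EZ minus that in the PIZ. At day 3 none of the 5 genes differed (0 with edgeR and with DESeq2, 1 with limma-voom and quality weights, and 1 at an unadjusted p under 0.05), and 0.0655% of all genes did. Pros1 had a difference of -0.01 ± 0.45 with a 95% interval of -0.92 to 0.90, so that differences of that size were not detectable here. Gas6 had the largest of the 5 at 0.89 ± 0.34 (adjusted p = 0.171, edgeR), and it is the gene that limma-voom called (0.87, adjusted p = 0.000221). Of all 21390 genes, limma-voom called 1879 and DESeq2 98, and 3828 had an unadjusted p under 0.05 with edgeR.

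At day 7 the kainate effect was larger in the EZ for 4 of the 5 genes, against 9.89% of all genes that differed in either direction. The difference was 1.80 ± 0.29 for Axl (adjusted p = 0.00129), 1.32 ± 0.31 for Mertk (0.00349), 1.35 ± 0.34 for Gas6 (0.00542) and 1.96 ± 0.47 for Pros1 (0.00376, all edgeR). Tyro3 had a difference in the other direction, -1.05 ± 0.36, that was not called (adjusted p = 0.0285, edgeR). These calls were close to the threshold. With mouse as a block, which uses that both sides come from the same animal, Axl, Mertk and Pros1 were called and Gas6 was not (1.19, adjusted p = 0.0103, edgeR). Without kainate mouse 21 no member was called (0 genes, adjusted p from 0.0204 to 0.0446 for these 4 genes), without saline mouse 20, 33 or 89 or kainate mouse 35 only Axl was, and without saline mouse 34 Axl and Mertk were. The sizes stayed between 1.02 and 2.24 on the log2 scale for these 4 genes when any 1 mouse was left out. At day 14 no member was called (0 with each of the 3 tools, 3 at an unadjusted p under 0.05), and 0% of all genes were. Of all 21390 genes, 1562 had an unadjusted p under 0.05 with edgeR. Without mouse 27, the differences of Axl (0.75), Mertk (0.71) and Pros1 (1.09) were 0.31, 0.29 and 0.27, and 0 genes had an unadjusted p under 0.05.

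Changes of the kainate effect over time were tested between different mice. From day 3 to day 7 in the EZ no member was called (0 genes, against 0.145% of all genes). Mertk had the largest difference of the 5, 1.08 ± 0.31 (adjusted p = 0.0935, edgeR). Limma-voom with quality weights called it and Axl (2 genes), DESeq2 called 0 members, and 2 members had an unadjusted p under 0.05. Of all 21390 genes, limma-voom called 1225 and DESeq2 98, and 2565 had an unadjusted p under 0.05 with edgeR. From day 7 to day 14 in the EZ, Axl had a log2 change of -1.37 ± 0.29 with an adjusted p of 0.0103, next to the threshold (edgeR). No member was called there (0 genes, against 0.271% of all genes), but DESeq2 called 1 and limma-voom 4, and 4 had an unadjusted p under 0.05. Of all 21390 genes, DESeq2 called 898 and limma-voom 6301, and 7081 had an unadjusted p under 0.05 with edgeR. Without mouse 27, Axl (-1.86), Mertk (-1.36), Gas6 (-1.47) and Pros1 (-2.15) were all called, with adjusted p of 0.000288 or less (edgeR). Without kainate mouse 23, Axl, Mertk and Gas6 were called (adjusted p of 0.00552 or less, edgeR), and without mouse 26 Axl was (adjusted p = 0.00546, edgeR). How many of all genes were called in these fits with a mouse left out is not given here. Their calls can therefore not be set beside the 0.271%.

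In the PIZ no member was called between day 3 and day 7 (0 genes, against 0.0234%, with 2 at an unadjusted p under 0.05) or between day 7 and day 14 (0 genes, against 0%, with 0 at an unadjusted p under 0.05 and 0 with either other tool). Pros1 had a log2 change of -1.35 ± 0.47 from day 3 to day 7 in the PIZ (adjusted p = 0.265, edgeR). It was called by limma-voom with quality weights (-1.25, adjusted p = 0.00479) and in a model of only the groups compared (-1.37, adjusted p = 0.0049), while DESeq2 called 0 members. Of all 21390 genes, limma-voom called 141 and DESeq2 33 there, and 2270 had an unadjusted p under 0.05 with edgeR.

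Injection without kainate was examined by comparing the EZ and PIZ of saline-injected mice. No member was called at day 3 (0 genes, against 0.0281% of all genes), day 7 (0 genes, 0%) or day 14 (0 genes, 0%) with edgeR or DESeq2, and the counts at an unadjusted p under 0.05 were 1, 0 and 0. Pros1 at day 3 was the exception at that level, with 10.2 to 17.6 TPM in the injected and 5.99 to 7.51 TPM in the other dentate gyrus. Its groups did not overlap, and its difference of 0.89 ± 0.33 (adjusted p = 0.593, edgeR) was called by limma-voom with quality weights (0.85, adjusted p = 0.0066). Of all 21390 genes, limma-voom called 99 at that day, and 1319 had an unadjusted p under 0.05 with edgeR. For the other 4 genes the log2 difference between sides in saline-injected mice lay between -0.22 and 0.34 at every day.

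Axl made up more of the receptor TPM after kainate than after saline, with no overlap of libraries in the EZ at days 3 and 7 and the PIZ at day 3. In the EZ Axl made up 50.9% ± 6.1 (SD, n = 4) of the summed TPM of the 3 receptors at day 3 after kainate and 27.2% ± 2.8 after saline. At day 7 these shares were 46.9% ± 3.5 and 23.8% ± 2.4, and in the PIZ at day 3 they were 35.6% ± 2.2 and 21.6% ± 2.6. These shares depend on the gene length used, and over the longest transcripts the Axl share in the EZ at day 3 was 63.7% ± 6.0 after kainate and 37.7% ± 3.8 after saline. Tyro3 had the opposite pattern, with 16.02% ± 4.31 against 34.5% ± 6.0 in the EZ at day 3 and 13.04% ± 3.37 against 39.9% ± 4.4 at day 7. The 3 shares of a library make up a whole, so a rise of Axl lowers the other shares even without a change in Tyro3. At day 7 the Tyro3 levels themselves overlapped between treatments. Mertk shares had group means between 30.5% and 40.1%. Summed over the 3 receptors, the EZ level was 124 ± 24 TPM after kainate and 83.3 ± 9.4 TPM after saline at day 3, and 173 ± 67 and 76.9 ± 9.1 TPM at day 7. The 2 ligands together reached 124 ± 33 TPM against 46.4 ± 2.9 TPM at day 3 and 155 ± 84 TPM against 42.7 ± 2.0 TPM at day 7.

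**Figure D3:**
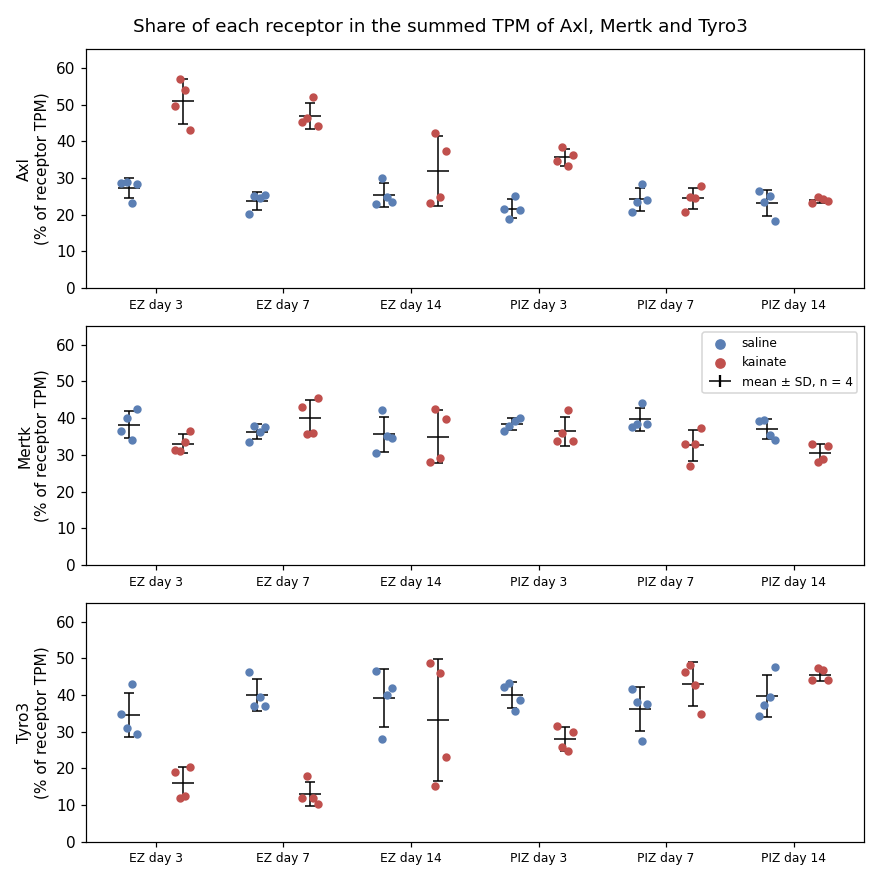
Percent of the summed TPM of Axl, Mertk and Tyro3 taken by each receptor (vertical axes) in each library, by region and day, with saline in blue, kainate in red and the mean ± SD of 4 libraries in black. Axl shares of the EZ kainate libraries at days 3 and 7 lie between 43.0% and 57.0%, above all saline libraries, and Tyro3 shares lie between 10.3% and 20.4%, below them. The shares of a library make up a whole and so do not vary independently.

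Ratios within a library were compared between treatments by 2-sided exact permutation tests, for which 4 mice against 4 cannot go below p = 0.0286. Of 24 ratios tested, 12 reached this p, and their adjusted p was 0.0571, so that none passed an adjusted p of 0.05. The log2 ratio of Axl to Mertk was 0.62 ± 0.27 (SD, n = 4) after kainate and -0.49 ± 0.10 after saline in the EZ at day 3, a difference of 1.11 (exact permutation p = 0.0286). The difference was 0.85 at day 7, 0.34 at day 14 and 0.80 in the PIZ at day 3, each with 4 of 4 kainate libraries above the 4 saline libraries. At day 14 this included the 3 kainate mice whose Mertk level was within or near the saline range. Axl to Tyro3 differed by 2.03, 2.62 and 1.24 in the EZ at day 3, the EZ at day 7 and the PIZ at day 3, also without overlap, and Mertk to Tyro3 by 0.92 and 1.77 in the EZ at days 3 and 7.

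The ligands were compared in the same way. The log2 ratio of Gas6 to Pros1 was 0.44 ± 0.19 after kainate and 1.43 ± 0.38 after saline in the EZ at day 3 (SD, n = 4), a difference of -0.98. At day 7 in the EZ the difference was -0.95, and in the PIZ at day 3 it was -1.81, with 0.56 ± 0.23 after kainate and 2.37 ± 0.39 after saline. All 3 comparisons were without overlap (exact permutation p = 0.0286, the smallest possible). In the EZ at day 14 the difference of -0.46 had an exact permutation p of 0.0857 (adjusted p = 0.121).

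**Figure D4:**
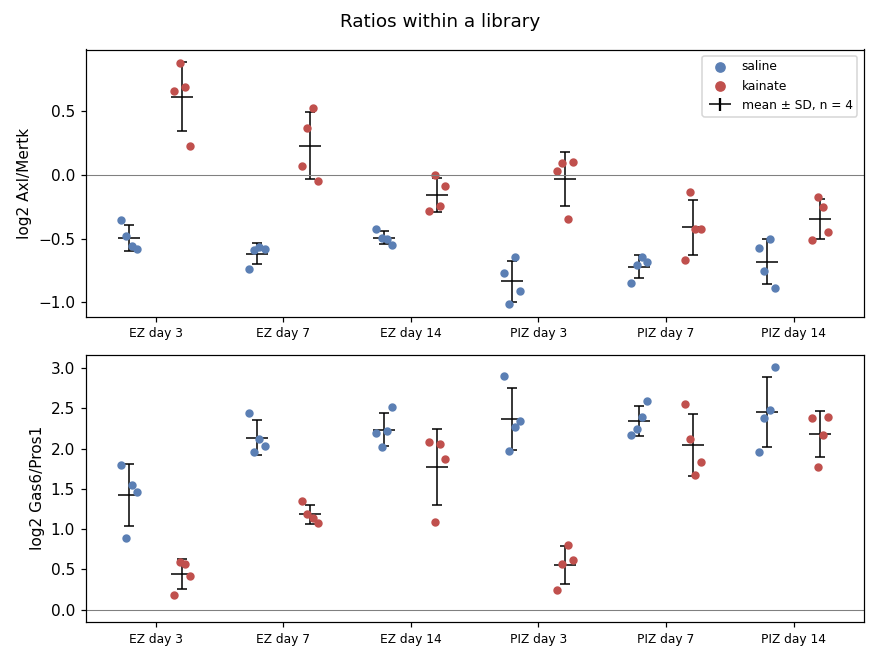
Log2 ratio of Axl to Mertk (top) and of Gas6 to Pros1 (bottom) in each library, on length-scaled values, by region and day, with saline in blue, kainate in red and the mean ± SD of 4 libraries in black. Axl to Mertk is higher and Gas6 to Pros1 lower after kainate in the EZ at days 3 and 7 and in the PIZ at day 3, each time without overlap.

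Ordered by mean TPM over all exons, Gas6 was the most abundant of the 5 in all 12 groups, and in each saline group Axl came next to last and Pros1 last, clear of Axl in every library. In saline-injected mice Gas6, Mertk and Tyro3 had means from 26.7 to 35.2 TPM, and neighbors in this order overlapped. In the EZ at day 3 after kainate the order was Gas6 (72.0 ± 21.9 TPM), Axl (63.9 ± 19.2), Pros1 (52.1 ± 11.01), Mertk (40.7 ± 6.6) and Tyro3 (19.1 ± 2.5), all SD with n = 4. Of these neighbors only Mertk and Tyro3 were without overlap, although in all 4 libraries each gene was above the next. The place of Axl depended on the length used. Over the longest transcript (4645 bases) in place of all exons (9180 bases) its EZ level was 36.6 TPM after saline and 102 TPM after kainate at day 3, against 26.7 and 33.6 TPM for Mertk, so that Axl was then above Mertk after saline too, and above Gas6 (85.0 TPM) after kainate. Fold changes of a gene do not depend on this length.

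Over the 48 libraries, log2 CPM of Axl correlated with Pros1 at r = 0.95, with Gas6 at 0.88, with Mertk at 0.82 and with Tyro3 at -0.56 (Pearson, n = 48). These values mix the groups. After group means were subtracted, they were 0.88, 0.76, 0.83 and -0.13. The r of Axl with Tyro3 was -0.27 in the EZ kainate groups and 0.10 in the others. With Pros1, Gas6 and Mertk, r was higher in the EZ kainate groups. Among their 12 libraries the within-group r of Axl with Pros1, Gas6 and Mertk was 0.94, 0.94 and 0.91 (0.87, 0.92 and 0.84 without mouse 27), whereas among the 36 libraries of the other 9 groups it was 0.62, -0.50 and 0.57. Both are descriptions over libraries that share mice and groups that differ in treatment.

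The 5 genes most like each member were taken by Pearson's r over the 48 libraries, of 21389 searched. For Axl they were Ppp1r18, Tcn2, Grn (progranulin), Fcer1g (the Fc receptor gamma chain) and Ctsd (cathepsin D), with r from 0.986 to 0.988. For Gas6 they were Glb1 (lysosomal beta-galactosidase), Ppt1 (palmitoyl-protein thioesterase), Uap1l1, Creg1 and Psap (prosaposin), with r from 0.964 to 0.972. Mertk was closest to Selenop (r = 0.937), followed by Dazap2, Sft2d2, P2ry13 (a purinergic receptor of microglia) and Creg1 (0.901). Pros1 was closest to Tnfrsf1a (a TNF receptor, r = 0.993), Cd63, Msn (moesin), Clic1 and Cnn3 (0.986). Tyro3 had other neighbors, Gpr161 (0.895), Meis2, Pex5l, Ccn3 and Tmem200a (0.869). No gene except Creg1 appeared for more than 1 member.

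Other genes of phosphatidylserine recognition and clearance were taken from 8 lists of 94 genes, of which 90 passed the filter; Tulp1, Timd4, Havcr1 and Xkr9 did not. Over these lists 46 genes were upregulated and 5 downregulated in the EZ at day 3 (51.1% and 5.6% of those tested, against 16.1% and 8.61% of all genes), and 54 and 5 at day 7 (60.0% and 5.6%, against 20.6% and 11.9%). At day 14 in the EZ 17 were upregulated and 0 downregulated (18.9% and 0%, against 2.32% and 0.0374%). Without mouse 27, none of the 90 was called there (0 genes, against 0.0323% of all genes), so that these day 14 calls rested on that mouse. In the PIZ at day 3 the numbers were 30 and 2 (33.3% and 2.2%, against 7.12% and 1.57%). The shares describe the lists and were not tested against other genes, and the same shares of all genes apply to the count of each list that follows.

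Of 21 other phosphatidylserine and engulfment receptors tested, 15 were upregulated in the EZ at day 3, 18 at day 7, 7 at day 14 (0 without mouse 27) and 10 in the PIZ at day 3, and none was downregulated (0 genes). Their median log2 fold change was 1.78 and 2.37 in the EZ at days 3 and 7. Trem2, a lipid receptor of microglia, changed by 2.08 and 3.97 in the EZ at days 3 and 7, and its signaling adaptor Tyrobp by 2.13 and 4.02. The largest changes were in Cd300lb (6.19), Cd300lf (4.50) and Megf11 (3.19) at day 3 and in Cd300lf (6.54) and Cd300lb (4.25) at day 7. Itgav, Itgb5 and Lrp1, whose products bind other bridging proteins or act with them, were called in the EZ at both days and in the PIZ at day 3. Adgrb1, the phosphatidylserine receptor BAI1 of neurons and glia, had 0.33 in the EZ at day 3, which was not called, and 0.60 in the PIZ, which was. Gpr34, called in the EZ at day 7 and in the PIZ at day 3, is also a microglial marker. Stab2 and Jmjd6 were not called in any of the 6 comparisons.

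Among 7 other ligands and bridging proteins tested, Lgals3 (galectin-3, a Mertk ligand) changed by 4.84 and 5.59 on the log2 scale in the EZ at days 3 and 7. The complement subunits C1qa, C1qb and C1qc, which tag debris for uptake, changed by 2.24 to 2.57 and 3.97 to 4.21. All 4 were also called in the PIZ at day 3 and in the EZ at day 14, there only with mouse 27 included. Tub, a TAM ligand that is also a neuronal gene, was downregulated (-1.15 and -1.47 in the EZ, with -0.78 on the PIZ side at day 3), and Edil3 was downregulated at day 3 in the EZ (-0.69). Mfge8, the bridging protein of the integrin route, was not called in any of the 6 comparisons, with 0.20 in the EZ at day 3 and 0.11 at day 7.

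Receptor shedding genes were also upregulated in the EZ. Adam17, whose protease cleaves Axl and Mertk from the cell surface, changed by 1.17 and 1.85 in the EZ at days 3 and 7 and by 0.86 in the PIZ at day 3, all called. Its regulators Rhbdf1 (2.43 and 2.53) and Rhbdf2 (1.95 and 2.74) and the inhibitor Timp3 (0.88 and 1.67) were also called in the EZ at both days, and Adam10 at day 7 (0.64). Of the list, 4 of 5 genes were upregulated at day 3 and 5 of 5 at day 7, where 16.1% and 20.6% of all genes were. In the EZ at day 14 none was called (0 genes).

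Downstream of the receptors, 11 of 21 genes of kinase and feedback signaling were upregulated in the EZ at day 3 and 12 at day 7, with 1 downregulated at each. Their median log2 fold change was 0.71 and 0.81, against 0.03 and 0.01 over all genes. Socs3 (4.30 and 4.85) and Socs1 (2.96 and 2.78), feedback inhibitors of cytokine signaling that TAM receptors are known to induce, had the largest increases at day 3. Lyn (2.01 and 3.15), a kinase of myeloid cells, was also called, while Akt1, Grb2 and Jak1 were not. Twist2, a transcription factor named in TAM feedback, was the downregulated gene (-3.96 and -4.26). The liver X receptor gene Nr1h3, which acts upstream of Mertk, was called at day 3 (0.75) and not at day 7 (0.27), and Nr1h2 (0.59) and Rxra (0.71) were called at day 7.

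Of 18 genes of the engulfment machinery, 7 were upregulated in the EZ at day 3 and 9 at day 7, with Dock4 downregulated at both (-1.24 and -1.12). Those with the largest increases were genes of blood-derived and myeloid cells, Dock2 (2.34 and 3.40), Rac2 (2.22 at day 3, with the largest increase of the list at day 7) and Vav1 (2.07 and 3.47), whereas the general forms Rac1, Crk and Rab7 were not called. Of 8 scramblases and flippases, which set where phosphatidylserine lies in the membrane, Plscr1 (1.44 and 2.01) was upregulated and Xkr4 (-1.44 and -1.41) downregulated in the EZ at both days. Ano6 was called at day 3 (0.60), and Xkr8 (0.73) and Tmem30a (-0.78) at day 7. In the don't-eat-me list Cd200r1 (2.08 and 2.96) and Cd24a (1.33 and 1.49) were called, and Cd47, Sirpa and Cd200 were not. Vkorc1, which recycles the vitamin K that Gas6 and protein S need to become active, changed by 1.14 and 1.29 in the EZ, and Nqo1 by 0.65 at day 7, while Ggcx, the carboxylase itself, had 0.14 and 0.16 and was not called.

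**Figure D5:**
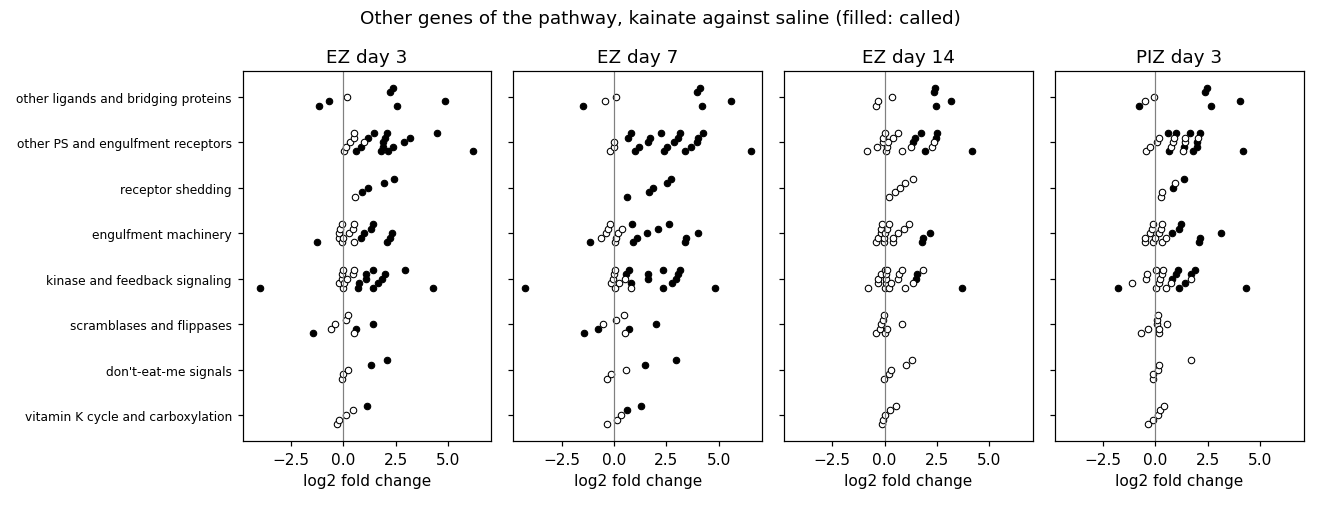
Log2 fold change of kainate against saline (horizontal axes) for the 90 tested genes of the 8 pathway lists (rows) in 4 comparisons, with called genes filled; PS is phosphatidylserine, and the vertical offset within a row only separates points. Receptors and shedding genes lie mostly to the right of 0 in the EZ at days 3 and 7, with 15 and 18 of 21 receptors called, and the vitamin K list stays near 0 except for Vkorc1 and Nqo1.

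Markers of the cell types of the tissue were examined in the same comparisons. Over all genes tested, 16.1%, 20.6%, 2.32% and 7.12% were upregulated and 8.61%, 11.9%, 0.0374% and 1.57% downregulated in the EZ at days 3, 7 and 14 and the PIZ at day 3, and the counts of each list are to be read beside these shares. Of 10 microglial markers, 6 were upregulated in the EZ at day 3, 10 at day 7, 6 at day 14 (0 without mouse 27, with a median of 0.43) and 10 in the PIZ at day 3, with a median log2 fold change of 1.003, 2.65, 1.28 and 1.39. In the EZ at day 3 Tmem119 (1.54) and Cx3cr1 (1.06) were upregulated, whereas P2ry12 (-0.26) and Siglech (-0.31) were not called. The summed microglial level in the EZ was 899 to 1440 TPM after kainate and 373 to 627 TPM after saline at day 3, and 915 to 3574 TPM against 308 to 345 TPM at day 7. None of the 10 markers was at 0, with a lowest group median of 3.50 TPM. In the PIZ at day 3 it was 691 to 870 TPM against 232 to 287 TPM, where Mertk and Gas6 were not called.

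Of 10 markers of monocytes and border macrophages, 6, 7 and 2 were upregulated in the EZ at days 3, 7 and 14 and 2 in the PIZ at day 3, and without mouse 27 the count at day 14 was 0. They included Ms4a7 (4.72 and 5.74 in the EZ at days 3 and 7, and 0.85 and not called in the PIZ at day 3) and Ccr2 (3.82 and 2.75, and 1.74 and not called). Lyz2 changed by 3.96 and 5.90 in the EZ and by 2.53 in the PIZ at day 3, and F13a1 and Plac8 were called in the EZ at both days. The border macrophage genes Cd163 (-0.50 and 0.81) and Lyve1 (-0.96 and -0.36) were not called in the EZ at days 3 and 7, and Mrc1 was called at day 7 (1.14) and not at day 3 (0.54). The summed level was 193 to 1097 TPM after kainate against 29.1 to 61.9 TPM after saline in the EZ at day 3, 164 to 1714 TPM against 24.4 to 33.6 TPM at day 7, and 71.2 to 111 TPM against 19.5 to 24.3 TPM in the PIZ at day 3. Most of this sum was Lyz2, which had a median of 396 TPM in the EZ at day 3 and 842 TPM at day 7 after kainate. Of 9 neutrophil and lymphocyte markers, 3 passed the filter, and Ly6g, which defines neutrophils, had a median of 0 to 0.0991 TPM in every group. Of the 3, Cd4 was upregulated in the EZ at day 7 (4.01) and not called at day 3 (1.78). S100a8 (1.62 and 1.39) and S100a9 (1.84 and -0.13) were not called in the EZ at days 3 and 7. The summed level of the list had medians of 6.04 TPM after kainate and 1.99 TPM after saline in the EZ at day 3, and 5.76 and 1.47 TPM at day 7. The part of these cells in the TAM changes was not tested.

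Neuronal genes moved the other way, with 6 of 10 granule cell and neuron markers downregulated in the EZ at days 3 and 7 and 2 in the PIZ at day 3, among them Snap25 (-1.28 and -1.53 in the EZ). Their summed level in the EZ was 507 to 1122 TPM after kainate and 1387 to 1582 TPM after saline at day 3. Prox1 was not called (-0.12 and -0.30). Of 6 interneuron markers 3 were downregulated in the EZ at both days, Sst (-3.13 and -2.28), Pvalb (-2.83 and -2.30) and Slc32a1 (-2.54 and -2.29). Gad1 (-0.43 and -0.48), Gad2 (-0.24 and -0.14) and Npy (1.02 and 1.198) were not called there, and Npy was upregulated in the PIZ at day 3 (1.70). The summed interneuron level overlapped between treatments, with medians of 298 TPM after kainate and 271 TPM after saline in the EZ at day 3 and 290 and 297 TPM at day 7. In that sum Npy had a median of 160.5 TPM after kainate and 76.3 TPM after saline at day 3, while Sst had 3.95 and 39.4 TPM. Of 10 astrocyte markers, 5 were upregulated and 2 downregulated in the EZ at day 3, 6 upregulated at day 7 and 5 in the PIZ at day 3, where Gfap changed by 3.65. Of 7 mural cell and fibroblast markers 6 were upregulated in the EZ at days 3 and 7 and 0 in the PIZ at day 3, and of 8 endothelial markers 4, 4 and 0. Of 10 oligodendrocyte lineage markers 4, 6 and 1 were upregulated, and of 5 choroid plexus and ependyma markers tested 2, 1 and 1 were upregulated, while Kl was downregulated in the EZ (-1.50 and -1.91), with Ttr at a median of 0.262 to 2.55 TPM in every group. Their part in the TAM changes was not tested either.

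Within the EZ kainate groups, libraries with more Axl, Mertk, Gas6 and Pros1 at days 7 and 14 also held more myeloid marker RNA. This order was read from 4 libraries per day, at day 14 mainly from mouse 27. It was not tested, and neither was the part of these cells. At day 7 in the EZ, mice 21 and 35 had 3574 and 2779 TPM of microglial markers, 1714 and 1642 TPM of monocyte and border macrophage markers, and 318 and 402 TPM of neuronal markers. Mice 23 and 26, with less Axl, Mertk, Gas6 and Pros1, had 915 and 1527 TPM, 164 and 291 TPM, and 937 and 1040 TPM. At day 14 mouse 27 had 1719 TPM of microglial markers against 370 to 487 TPM in the other 3 mice, and 719 TPM of neuronal markers against 1542 to 1623 TPM. Tyro3 had no such order. Mouse 27 was the second lowest of its group for Tyro3, whereas at day 7 mouse 21, with the least neuronal marker RNA, had the highest Tyro3 level (29.6 TPM) and mice 23 and 26 the lowest (17.3 and 17.2 TPM).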

How the data were processed

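The 48 libraries were stranded, made from poly(A) RNA and read from both ends. The authors trimmed reads with fastp 0.20.1, aligned them to GRCm39 with HISAT2 2.2.1 and counted them per Gencode M28 gene with featureCounts of Subread 1.6.4. Multi-mapping reads were counted at their primary alignment, which can misplace reads of similar genes. The deposited values were raw counts per gene, not normalized. Gene lengths came from Gencode M39 on the same build, which matched 98.9% of the 55357 genes.

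Genes were filtered with filterByExpr (21390 kept), normalized by TMM and fitted in 1 edgeR 4.0.16 quasi-likelihood model of 48 libraries with 12 group means (R 4.3.3). Kainate was compared with saline within region and day, and those effects were compared between regions and days. DEG changed more than 1.5-fold at an adjusted p below 0.01. Interval limits are at 95%. The model script was tested on simulated data. Ratios used log2 values with a prior count of 2 and 2-sided exact permutation tests (R 4.3.3). DESeq2 1.42.0, limma-voom 3.58.1 with quality weights, other scalings, filters and thresholds, and leaving out each mouse were tried as alternatives, and list counts at day 14 without mouse 27, within-group correlations in parts of the libraries and receptor shares by longest transcript were added after seeing the data.

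The main model had no term for mouse, so its region comparisons were unpaired. Both regions come from the same animal, and fits with mouse as a block were run as alternatives. The correlation of their deviations from group means lay between -0.05 and 0.38 (median 0.21, over 0.1 in 20 of 24 mice). Of 72 replicate pairs 0 agreed within sampling noise. The p-values and standard errors of the main model rest on 1 estimate of spread per gene, shared by all 12 groups. The 2 libraries of a mouse were counted as separate. They therefore do not follow the spread of the groups compared. For Axl in the EZ at day 7, the SD of log2 CPM was 0.47 after kainate and 0.017 after saline.

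The 5 genes and all gene lists were chosen with earlier results of these data known. The rule for named genes took the 5 members, the 5 genes most correlated with each, up to 3 called genes of each pathway list with the largest change in each direction in the EZ at days 3 and 7, and from each marker list the first 3 genes and the called genes with the largest change. Other list genes were named for their known role after their values were seen. Promoter sequences are from the reference genome. Depth per library is given with the results.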

Additional observations from a re-analysis of the deposited data

Results flagged for a closer look

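In 7 of 60 groups of 4 libraries, 1 library lay outside the others by Dixon's test at the 95% level, where chance gives about 1 in 20. Mouse 27 accounted for 3 of them in the EZ at day 14 after kainate, with 86.6 TPM of Gas6, 55.1 TPM of Mertk and 40.7 TPM of Pros1. In the same group its Axl level of 55.0 TPM was also the highest but did not pass that test. The Mertk level of mouse 42 in the PIZ at day 3 after kainate was 46.5 TPM, against 30.8 to 32.997 TPM in the other 3 mice.

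Among saline-injected mice, mouse 37 had 41.1 TPM of Tyro3 in the EZ at day 3, mouse 28 had 8.47 TPM of Pros1 in the EZ at day 14, and mouse 39 had 15.4 TPM of Axl in the PIZ at day 14, the last lower than its group. What set these libraries apart was not tested.

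The kainate effect at day 7 differed between EZ and PIZ by 1.80 for Axl, 1.32 for Mertk, 1.35 for Gas6 and 1.96 for Pros1 on the log2 scale, by edgeR's test of the difference itself. Summed microglial markers in the EZ kainate libraries of that day ranged from 915 to 3574 TPM and neuronal markers from 318 to 1040 TPM, and the part of those cells was not tested.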

How the results depend on the processing

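The 4 calls in the EZ at day 7 were made under all alternatives tried. At day 3 in the EZ the number was 2 with glmTreat, which tests against a fold change of 1.5 and left out Gas6 (adjusted p = 0.107), and 4 at an adjusted p under 0.05, where Tyro3 was added as downregulated. Of the 5 TAM genes, the number called in the EZ at day 14 was 2 at an adjusted p under 0.05 and 1 with DESeq2, and 0 to 2 with 1 mouse left out. In the PIZ at day 3 it was 1 with glmTreat and 1 to 2 with 1 mouse left out. For the region difference at day 7 it was 0 with glmTreat, 5 at an adjusted p under 0.05 (with Tyro3, in the other direction), 2 in a model of only the groups compared, and 0 to 4 with 1 mouse left out. With the replicate block (mouse as a fixed term in edgeR), which pairs the regions, it was 3, as Gas6 had 1.19 with an adjusted p of 0.0103; with mouse as a random effect in limma-voom (correlation 0.163) it was 4. For the change from day 7 to day 14 in the EZ it was 3 at an adjusted p under 0.05, 4 with limma-voom and quality weights, 0 to 4 with 1 mouse left out, and 1 each with library size only, at least 10 counts in every library, DESeq2 and the limma-voom replicate block. Limma-voom with quality weights also called 1 member for the region difference at day 3 and 1 between the sides after saline at day 3. For day 7 against day 3 it called 2 in the EZ and 1 in the PIZ, where a model of only the groups compared also gave 1. Over all genes it called 1879, 99, 1225 and 141 in these comparisons, in that order, against 14, 6, 31 and 5 with edgeR. The cause was not tested.

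Directions turned only for values that were not called, which lay between -0.22 (Tyro3 after saline, day 3) and 0.35 (Mertk, EZ day 14) in the 48-library model. After the turn they were, with limma-voom and quality weights, Mertk (-0.054) and Tyro3 (0.33) in the EZ at day 14, Mertk in the PIZ at day 7 (0.062) and from day 3 to 7 (0.00036), the Tyro3 region difference at day 14 (0.13), and after saline Mertk at day 3 (0.023), Tyro3 at day 14 (0.049) and Gas6 at day 14 (0.041). With library size only they were Tyro3 in the EZ at day 14 (0.011), Mertk and Axl in the PIZ at days 7 (0.058) and 14 (0.0052), the Pros1 region difference at day 3 (0.018) and Mertk after saline at day 3 (0.017). Without a filter Mertk in the PIZ at day 7 was 0.0044, and with the replicate block the Pros1 region difference at day 3 was 0.0090 (limma-voom) and 0.0065 (edgeR).

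With 1 mouse left out, ranges that crossed 0 were, for kainate against saline, -0.071 to 0.018 (Axl, PIZ day 14), -0.15 to 0.031 (Gas6, PIZ day 14), -0.054 to 0.50 (Mertk, EZ day 14), -0.099 to 0.19 and -0.090 to 0.072 (Mertk, PIZ days 3 and 7) and -0.30 to 0.19 (Tyro3, EZ day 14). For region differences they were -0.25 to 0.14 (Pros1, day 3) and -0.44 to 0.13 (Tyro3, day 14), and between days 3 and 7 they were -0.21 to 0.081 (Mertk, PIZ) and -0.044 to 0.34 (Tyro3, EZ). After saline they were -0.074 to 0.016 (Gas6, day 14), -0.079 to 0.077 (Mertk, day 3), and -0.27 to 0.15 and -0.53 to 0.016 (Tyro3, days 14 and 3). Groups of 4 and whole tissue limit all results, and library totals covered a narrow range.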
